A study of Mus musculus with 6 samples.

Results

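Transcripts of hepatocytes were read in RNA of isolated liver sinusoidal endothelial cells (LSECs), the lining cells of the liver capillaries. The members are 42 genes named from knowledge of the liver for what hepatocytes make: plasma proteins, clotting factors, enzymes of the periportal and of the pericentral zone, genes of bile acid metabolism and a few further enzymes and carriers. Of these, 40 matched a measured gene by symbol among the 24479 genes of the table, and Serpina3k and Sds are not analysed here. LSECs were prepared from Lyve-1-KO mice (B6.129S1-Lyve1tm1Lhua/J, a constitutive knockout of the hyaluronan receptor Lyve-1 on a C57BL/6 background) and from Ctrl mice (C57BL/6J) by collagenase perfusion through the portal vein, a density gradient and magnetic beads against CD146. Each group had 3 Affymetrix MoGene-2_0-st arrays, each array with RNA of 1 pool of cells from 3 mice, so an array stands for a pool and the spread among the mice in it was not seen. Because the knockout is constitutive, every cell of these mice carried it, hepatocytes included. The study gives an age range for its mice in general, and the age and sex of the mice in these pools are not given in the sources used here. The study names both littermates and purchased mice among its controls, and where the Ctrl mice were purchased, origin and genotype cannot be told apart. All levels below are log2 values after quantile normalization, which gave the 6 arrays the same distribution (median 5.04, lowest value 2.92, highest 13.87). Levels depend on the probes of a gene, so they are compared between arrays and not between genes.

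The arrays labelled Lyve-1-KO had Lyve1 levels of 12.85, 12.88 and 12.83, and the Ctrl arrays 12.78, 12.69 and 12.84. The signal was thus not lower under the knockout label, the position of its probes relative to the deleted part was not analysed here, and all directions below are those of the arrays labelled Lyve-1-KO. The 16 LSEC markers had mean levels of 12.77 to 12.78 in the Lyve-1-KO arrays and 12.78 to 12.80 in the Ctrl arrays, so the labelled cell type was borne out in each array. Transcripts of the Y-linked Kdm5d, Eif2s3y and Uty lay between 6.92 and 8.59 in the Lyve-1-KO arrays and between 6.81 and 8.42 in the Ctrl arrays, and Xist lay at 3.48 to 3.65 and at 3.49 to 3.58, so Y-linked transcripts were present and Xist was near the low end of the scale in all 6 arrays.

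Hepatocytes fill the plates between the sinusoids and secrete most plasma proteins, including albumin, apolipoproteins and fibrinogen. Along the path of the blood they divide their work: hepatocytes around the portal vein run the urea cycle, gluconeogenesis and amino acid breakdown, while those around the central vein make glutamine and hold much of the cytochrome P450 enzymes that handle drugs. Bile acids are made from cholesterol by a classic route that starts with Cyp7a1 and an alternative route that uses Cyp27a1 and Cyp7b1. Transcription of many of these genes rests on liver-enriched factors such as HNF1, HNF4 and C/EBP. Not every member belongs to hepatocytes alone: Glul and Ass1 are also made by endothelium, Cyp27a1 and Hp by cells of the myeloid line and Car2 by red cells.

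RefSeq promoters, windows of 300 bases that reach from upstream of an annotated start to just past it (build GRCm38.p6), were found for 29 of the 40 members, and 5 are shown: those of the secreted proteins albumin, fibrinogen beta chain and the protease inhibitor Serpina1c, which hold the same searched motif close to the start, that of Cyp2e1, whose level moved most between arrays, and that of Glul, whose level hardly moved. Their positions are chr5:90460620-90460919 (plus strand) for Alb, chr3:83049814-83050113 (minus strand) for Fgb, chr12:103904901-103905200 (minus strand) for Serpina1c, chr7:140763569-140763868 (plus strand) for Cyp2e1 and chr1:153899679-153899978 (plus strand) for Glul. Capitals mark the letters that matched a searched motif on either strand.
Alb: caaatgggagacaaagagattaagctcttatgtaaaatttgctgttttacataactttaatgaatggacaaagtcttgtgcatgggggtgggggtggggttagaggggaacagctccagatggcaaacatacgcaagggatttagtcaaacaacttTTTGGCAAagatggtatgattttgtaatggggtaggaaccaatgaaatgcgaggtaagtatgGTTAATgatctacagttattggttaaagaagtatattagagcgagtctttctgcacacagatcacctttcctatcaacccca
Fgb: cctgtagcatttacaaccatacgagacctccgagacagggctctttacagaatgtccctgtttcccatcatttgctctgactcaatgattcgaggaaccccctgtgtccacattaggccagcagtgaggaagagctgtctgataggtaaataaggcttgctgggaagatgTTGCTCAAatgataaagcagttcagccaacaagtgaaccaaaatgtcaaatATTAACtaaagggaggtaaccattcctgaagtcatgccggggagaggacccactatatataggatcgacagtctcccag
Serpina1c: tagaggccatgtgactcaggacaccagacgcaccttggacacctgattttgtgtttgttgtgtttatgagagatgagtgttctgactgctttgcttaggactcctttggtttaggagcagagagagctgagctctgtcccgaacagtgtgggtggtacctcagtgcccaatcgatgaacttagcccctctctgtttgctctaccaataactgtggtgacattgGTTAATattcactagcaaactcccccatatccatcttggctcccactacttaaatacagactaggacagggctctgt
Cyp2e1: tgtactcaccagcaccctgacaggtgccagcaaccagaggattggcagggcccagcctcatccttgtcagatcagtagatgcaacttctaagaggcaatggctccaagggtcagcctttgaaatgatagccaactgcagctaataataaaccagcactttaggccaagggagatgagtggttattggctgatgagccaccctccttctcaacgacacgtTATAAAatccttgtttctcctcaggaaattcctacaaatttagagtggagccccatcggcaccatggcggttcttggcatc
Glul: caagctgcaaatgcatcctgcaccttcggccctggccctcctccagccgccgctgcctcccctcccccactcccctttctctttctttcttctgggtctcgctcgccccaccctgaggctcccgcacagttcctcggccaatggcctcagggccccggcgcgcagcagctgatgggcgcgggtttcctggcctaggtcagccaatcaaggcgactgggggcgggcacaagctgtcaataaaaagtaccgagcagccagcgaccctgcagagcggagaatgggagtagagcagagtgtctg
Counted from the start, the HNF1 motif GTTAAT stood at -32 in Alb, -29 in Fgb and -27 in Serpina1c, and the C/EBP motif TTGCNNAA at -94 in Alb and -80 in Fgb. In Cyp2e1 the TATA motif TATAAA stood at -31, and none of the searched motifs was present in these letters of Glul. Over all 27025 genes with a promoter in the table, GTTAAT was found in 8.24% and in 7 members (24.1%): Alb, F13b, F2, Fga, Fgb, Pck1 and Serpina1c. TTGCNNAA was found in 12.2% of all genes and in 11 members (37.9%), and TATAAA in 15.7% of all genes and in 9 members (31.0%). The HNF4 motif CAAAGTCCA was in 0.555% of all genes and in 2 members (6.9%), Cyp3a11 and Cyp8b1. The full HNF1 palindrome, which holds the shorter HNF1 motif, was in 0.0111% of all genes and in no member. The other motifs do not contain each other. A match of letters is a description and does not show that a factor binds there.

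The hepatocyte transcripts followed the array far more than the group. Their mean level was 6.70, 7.48 and 6.71 in Lyve-1-KO arrays 1, 2 and 3, against 6.58, 7.44 and 6.95 in Ctrl arrays 1, 2 and 3. Replicate 2 thus had the highest level in both groups, and the groups overlapped. Lyve-1-KO replicate 2 lay 0.77 above the mean of the other Lyve-1-KO arrays (1.71-fold), and Ctrl replicate 2 lay 0.67 above the other Ctrl arrays (1.59-fold). In an RNA pool, more hepatocytes and more RNA per hepatocyte cannot be told apart. Gene by gene, Lyve-1-KO replicate 2 was the highest Lyve-1-KO array for 37 of the 40 members and Ctrl replicate 2 the highest Ctrl array for 34. Both held for 32 members (80.0%), against 10.5% of all genes. Ctrl replicate 1 was the lowest Ctrl array for 33 members (82.5%, against 31.7% of all genes), and Lyve-1-KO replicate 3 was the lowest Lyve-1-KO array for 26. The SD within a group had a median of 0.55 over the members and of 0.11 over all genes, and 39 members lay above that of all genes. From the lowest to the highest array, the members spanned a median of 1.26, against 0.31 over all genes.

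**Figure D1:**
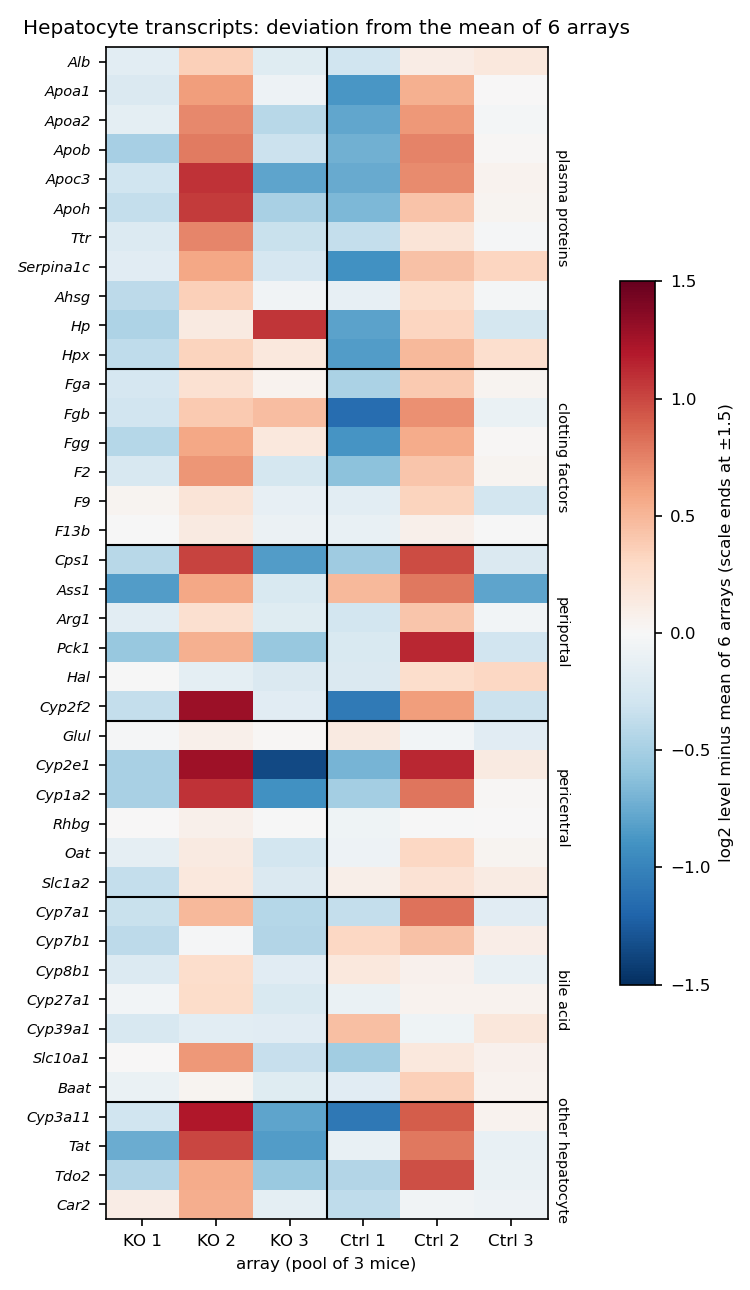
Deviation of each of 40 hepatocyte transcripts (rows, grouped by role) from its mean over the 6 arrays (columns, Lyve-1-KO left and Ctrl right of the line), on a log2 colour scale that ends at 1.5 above and below. The columns of replicate 2 are above the mean in both groups for most rows, Ctrl replicate 1 is below it for most, and Glul, Rhbg and F13b stay near the mean throughout.

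Between the groups, the mean level of the members was 6.96 ± 0.45 in Lyve-1-KO and 6.99 ± 0.43 in Ctrl (SD, n = 3 arrays each), a difference of -0.03. Its sign turned when 1 array was left out, to 0.10 without Lyve-1-KO replicate 1, to 0.10 without Lyve-1-KO replicate 3, and to 0.20 for the arrays that remained without Ctrl replicate 2, whereas leaving out Lyve-1-KO replicate 2 gave -0.29 and leaving out Ctrl replicate 1 gave -0.23. With the hepatocyte level as covariate, described next, it was 0.11. Single genes were compared with limma, and p-values were adjusted over all 24479 genes by Benjamini-Hochberg with a threshold of 0.05. None of the 40 members passed (lowest adjusted p = 0.265, for Cyp7b1), against 0.00409% of all genes. At an unadjusted p under 0.05, no member was higher, against 5.87% of all genes, and 2 were lower, Cyp7b1 and Cyp39a1, against 5.33% of all genes. The test per gene named in the study's methods likewise passed no member after adjustment and gave 1 with an unadjusted p under 0.05. No member had all its Lyve-1-KO arrays above all its Ctrl arrays, against 8.71% of all genes, and 2 had them all below, again Cyp7b1 and Cyp39a1, against 8.73% of all genes. With 21 fold changes above 0 and 19 below, the median log2 fold change was 0.01 over the members and 0.00 over all genes.

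**Figure D2:**
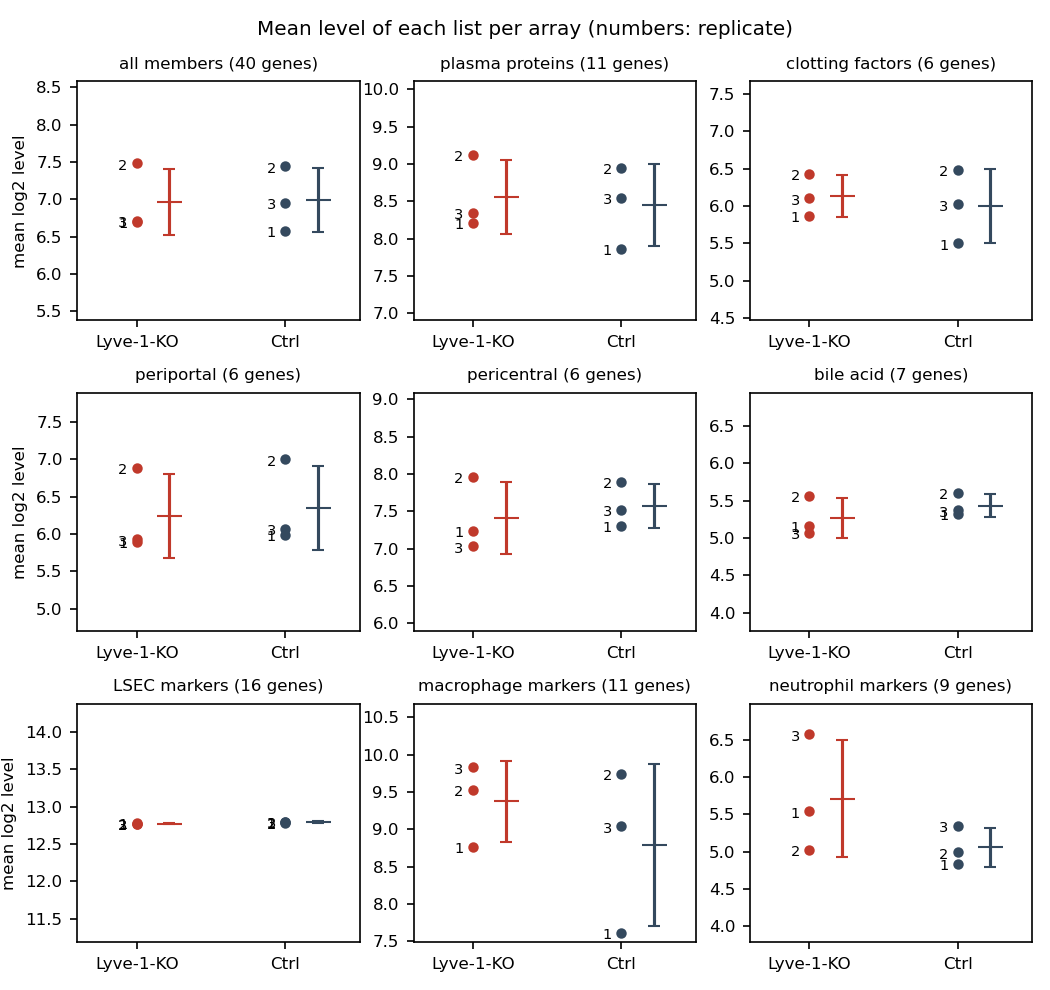
Mean log2 level of each list (vertical axis, the same span in every panel) in each array, Lyve-1-KO left and Ctrl right, with points for arrays (numbers are replicates) and bars for mean and SD of 3 arrays. Replicate 2 is highest in both groups in the 6 panels of hepatocyte genes, LSEC markers stay between 12.77 and 12.80, and neutrophil markers are highest in Lyve-1-KO replicate 3.

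The labels do not say that the replicate numbers pair the pools. Across all genes, arrays of the same number tended to deviate together, although over the members this hardly held for replicate 3 (correlation 0.0738). The replicate number was therefore also used as a block. With it no member passed, nor did any gene (0.0% of all genes), and at an unadjusted p under 0.05 it gave 1 higher member, Cyp2f2, against 5.78% of all genes, and 5 lower members, Cyp7b1, Pck1, Cyp39a1, Slc1a2 and Tdo2, against 5.49%. The lowest adjusted p among the members was then 0.214. The mean level of a wider list of 64 measured hepatocyte genes, none of them a member, was used in another fit as a covariate. This level was 5.15, 5.76 and 4.99 in the Lyve-1-KO arrays, against 5.09, 5.78 and 5.38 in the Ctrl arrays, so it too was highest in replicate 2 of both groups, with a difference of -0.11 between them. With it no member and no gene passed (0.0% of all genes, lowest adjusted p among members 0.254). At an unadjusted p under 0.05, 9 members were higher, against 5.48% of all genes, and 2 were lower, Cyp7b1 and Cyp39a1, against 5.24%. The 9 were Apoa2, Apoc3, Apoh, Ttr, F2, Cyp2f2, Slc10a1, Cyp3a11 and Car2. In the same fit, 8 of the 64 wider genes, whose mean is the covariate, were higher and 8 lower. Members that follow this level had smaller standard errors with it (Cyp3a11 0.11, against 0.64 with group alone). Most genes do not follow it, so the shares of all genes are not a like background for these counts. The fold changes of the 9 in this fit are relative to the hepatocyte level, and the wider list was chosen with results of these data known.

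**Figure D3:**
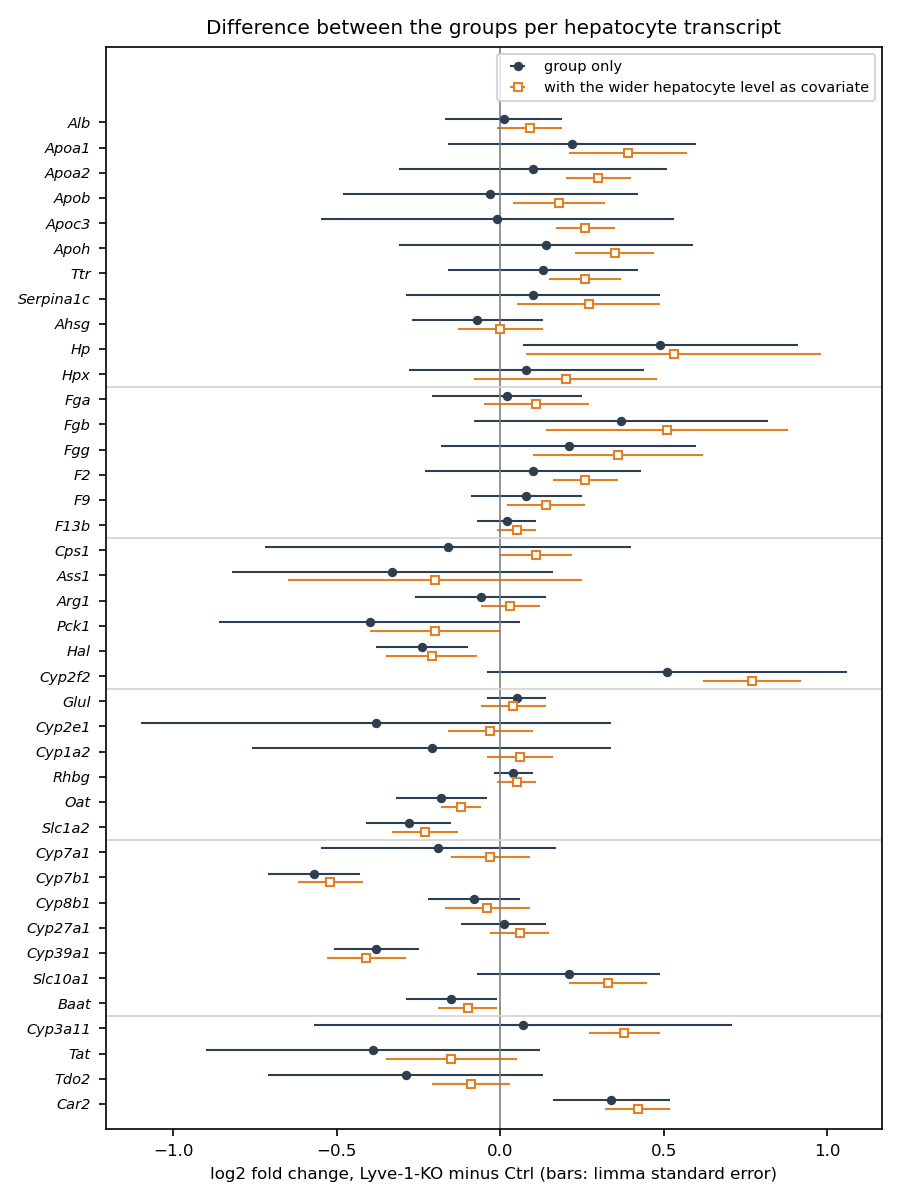
Log2 fold change of each of 40 hepatocyte transcripts (Lyve-1-KO minus Ctrl, horizontal axis; bars are limma standard errors), with group alone (filled circles) and with the wider hepatocyte level as covariate (open squares). With group alone most bars cross 0 and Cyp7b1, at -0.57, lies farthest from it relative to its bar, while the squares of Cyp2f2 (0.77) and Car2 (0.42) move to the right with shorter bars.

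The plasma proteins of the hepatocyte had a mean level of 8.21, 9.12 and 8.35 in the Lyve-1-KO arrays, against 7.86, 8.95 and 8.55 in the Ctrl arrays (8.56 ± 0.49 and 8.45 ± 0.55, SD, n = 3 each). All 11 measured genes had their lowest Ctrl value in Ctrl replicate 1, 8 had a fold change above 0, and none passed (lowest adjusted p by limma 0.705). Alb, albumin, the most abundant plasma protein and a carrier, measured 11.70, 12.22 and 11.68 in the Lyve-1-KO arrays, against 11.56, 11.97 and 12.02 in the Ctrl arrays. Its groups overlapped, with the highest values in Lyve-1-KO replicate 2 and Ctrl replicate 3, and its log2 fold change came to 0.01 (standard error 0.18). Apoa1, the main protein of high-density lipoprotein, measured 7.62, 8.46 and 7.76 in the Lyve-1-KO arrays, against 6.96, 8.37 and 7.84 in the Ctrl arrays. Apob, the structural protein of low-density lipoprotein, measured 6.61, 7.89 and 6.79 in the Lyve-1-KO arrays, against 6.39, 7.86 and 7.13 in the Ctrl arrays. Apoc3, which slows the breakdown of triglyceride-rich particles, measured 6.92, 8.30 and 6.43 in the Lyve-1-KO arrays, against 6.46, 7.93 and 7.27 in the Ctrl arrays. In all 3 apolipoproteins replicate 2 was highest and Ctrl replicate 1 at or near the bottom, and log2 fold changes were 0.22 (standard error 0.38), -0.03 (standard error 0.45) and -0.01 (standard error 0.54). Ttr, transthyretin, which carries thyroxine and retinol-binding protein, measured 9.33, 10.27 and 9.20 in the Lyve-1-KO arrays, against 9.18, 9.73 and 9.52 in the Ctrl arrays. Ahsg, fetuin-A, an inhibitor of calcification, averaged 9.99 ± 0.37 in Lyve-1-KO and 10.07 ± 0.20 in Ctrl (SD, n = 3 each). For both genes the groups overlapped around a peak in replicate 2, with log2 fold changes of 0.13 (standard error 0.29) and -0.07 (standard error 0.20). Hp, haptoglobin, which binds free haemoglobin, departed from this order, with 7.05, 7.65 and 8.58 in the Lyve-1-KO arrays, against 6.71, 7.84 and 7.25 in the Ctrl arrays. Lyve-1-KO replicate 3 stood highest of all arrays, and its log2 fold change came to 0.49 (standard error 0.42) with p = 0.5 by an exact two-sided permutation test. In the same array the 9 neutrophil markers had their highest mean level, with 5.02 to 6.57 in the Lyve-1-KO arrays and 4.84 to 5.34 in the Ctrl arrays, and 4 of the 9 had mean levels below the median of all genes. The 15 acute phase genes described below also had their highest mean level there, 6.05, although it was the highest Lyve-1-KO array for only 5 of them. The part of either list in the value of Hp was not tested. Apoa2, Apoh, Serpina1c and Hpx, an apolipoprotein, a phospholipid-binding protein, a protease inhibitor and a haem carrier, had log2 fold changes between 0.08 and 0.14 and spanned 1.33 to 1.72 between arrays. Serpina1c belongs to a family of near-identical copies, and its probes may read other copies too, as those of Cyp3a11 may.

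The clotting factors had a mean level of 5.87, 6.43 and 6.10 in the Lyve-1-KO arrays, against 5.50, 6.48 and 6.02 in the Ctrl arrays. All 6 fold changes lay above 0, from 0.02 to 0.37, all 6 had Ctrl replicate 2 as their highest Ctrl array, and none passed (lowest adjusted p by limma 0.800). Fgb and Fgg, the beta and gamma chains of fibrinogen, share the clot-forming molecule with Fga. Fgb measured 7.80, 8.48 and 8.55 in the Lyve-1-KO arrays, against 6.95, 8.78 and 7.99 in the Ctrl arrays. Fgg measured 7.53, 8.53 and 8.11 in the Lyve-1-KO arrays, against 7.07, 8.51 and 7.97 in the Ctrl arrays. Ctrl replicate 1 was lowest for both, the groups overlapped, and the log2 fold changes were 0.37 (standard error 0.45) and 0.21 (standard error 0.39). F2, prothrombin, measured 7.22, 8.12 and 7.19 in the Lyve-1-KO arrays, against 6.84, 7.88 and 7.50 in the Ctrl arrays, with a peak in replicate 2 of both groups and a log2 fold change of 0.10 (standard error 0.33). F9, an X-linked clotting protease, measured 3.90, 4.05 and 3.74 in the Lyve-1-KO arrays, against 3.70, 4.19 and 3.58 in the Ctrl arrays. F13b, the carrier subunit of the clot-stabilizing factor XIII, measured 3.54, 3.68 and 3.46 in the Lyve-1-KO arrays, against 3.44, 3.63 and 3.54 in the Ctrl arrays. Both lay below the median of all genes in every array and the groups overlapped, with log2 fold changes of 0.08 (standard error 0.17) and 0.02 (standard error 0.09). F13b spanned only 0.24 between the arrays. Fga spanned 0.87, with a log2 fold change of 0.02 (standard error 0.23).

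**Figure D4:**
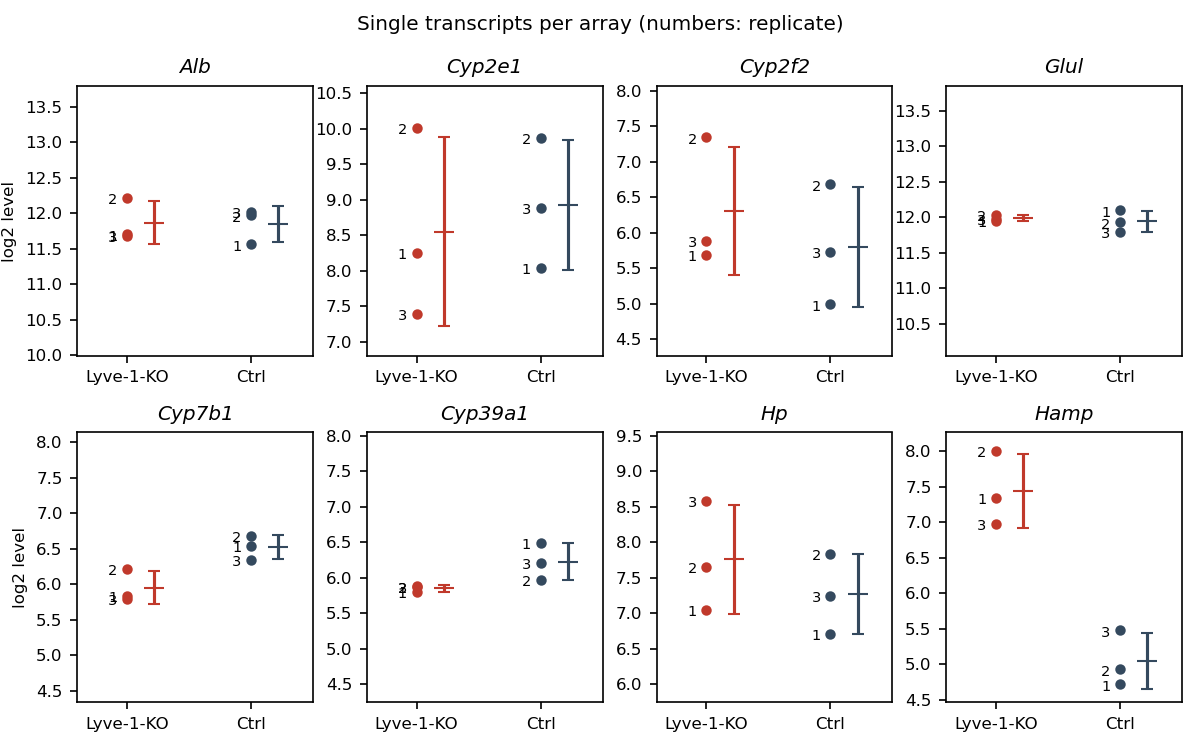
Log2 level of 7 hepatocyte members and of Hamp in each array (points with replicate numbers, Lyve-1-KO left, Ctrl right), with mean and SD of 3 arrays; each panel spans the same number of log2 units. Cyp2e1 and Cyp2f2 are highest in replicate 2 of both groups, Glul is flat, and the groups do not overlap for Cyp7b1, Cyp39a1 and Hamp.

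The periportal genes had a mean level of 5.90, 6.89 and 5.93 in the Lyve-1-KO arrays, against 5.99, 7.00 and 6.07 in the Ctrl arrays. Replicate 2 lay 0.97 above the others of its group on both sides (1.96-fold), and the group means of 6.24 ± 0.56 and 6.35 ± 0.56 (SD, n = 3 each) differed by -0.11. None of the 6 measured genes passed (lowest adjusted p by limma 0.574), with 1 fold change above 0 and 5 below. Cps1, which starts the urea cycle, measured 5.69, 7.12 and 5.27 in the Lyve-1-KO arrays, against 5.57, 7.08 and 5.89 in the Ctrl arrays. Ass1, which joins citrulline and aspartate in that cycle, measured 6.92, 8.33 and 7.52 in the Lyve-1-KO arrays, against 8.24, 8.55 and 6.96 in the Ctrl arrays. Arg1, arginase, which releases urea, measured 5.79, 6.19 and 5.77 in the Lyve-1-KO arrays, against 5.67, 6.37 and 5.91 in the Ctrl arrays. Cps1 and Arg1 had their peaks in replicate 2, whereas Ass1 was nearly as high in Ctrl replicate 1 as in the replicate 2 arrays. The log2 fold changes were -0.16 (standard error 0.56) for Cps1, -0.33 (standard error 0.49) for Ass1 and -0.06 (standard error 0.20) for Arg1. Pck1, a rate-limiting enzyme of gluconeogenesis, measured 6.20, 7.31 and 6.20 in the Lyve-1-KO arrays, against 6.54, 7.90 and 6.48 in the Ctrl arrays. Within each replicate number the Lyve-1-KO array was below the Ctrl array, with differences of -0.33, -0.58 and -0.29, although the groups overlapped, and its log2 fold change of -0.40 (standard error 0.46) had an unadjusted p by limma of 0.41 without and 0.0053 with the replicate block. Cyp2f2, a P450 enzyme typical of periportal hepatocytes, measured 5.69, 7.34 and 5.88 in the Lyve-1-KO arrays, against 4.99, 6.68 and 5.73 in the Ctrl arrays. Within each replicate number the Lyve-1-KO array was above the Ctrl array, with differences of 0.70, 0.66 and 0.15, while the groups overlapped and replicate 2 was high in both. Its log2 fold change was 0.51 (standard error 0.55) with an unadjusted p of 0.387 by limma, and 0.77 with an unadjusted p of 0.0022 once the hepatocyte level was a covariate (adjusted p = 0.254). Hal, which begins the breakdown of histidine, measured 5.14, 5.01 and 4.94 in the Lyve-1-KO arrays, against 4.94, 5.42 and 5.46 in the Ctrl arrays, with overlapping groups and a log2 fold change of -0.24 (standard error 0.14).

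The pericentral genes had a mean level of 7.24, 7.96 and 7.03 in the Lyve-1-KO arrays, against 7.30, 7.89 and 7.52 in the Ctrl arrays. The group means of 7.41 ± 0.48 and 7.57 ± 0.30 (SD, n = 3 each) differed by -0.16, and none of the 6 genes passed (lowest adjusted p by limma 0.489). Within this zone the genes behaved unlike each other. Cyp2e1, which oxidises ethanol and other small molecules, measured 8.25, 10.01 and 7.39 in the Lyve-1-KO arrays, against 8.04, 9.87 and 8.88 in the Ctrl arrays. Cyp1a2, which clears caffeine and acts on aromatic amines, measured 5.17, 6.73 and 4.74 in the Lyve-1-KO arrays, against 5.14, 6.46 and 5.67 in the Ctrl arrays. Cyp2e1 spanned 2.61 between arrays, a 6.12-fold range and the widest of all members, and Cyp1a2 spanned 1.99, both with Lyve-1-KO replicate 3 lowest and the replicate 2 arrays highest. Their log2 fold changes were -0.38 (standard error 0.72) and -0.21 (standard error 0.55). Glul, glutamine synthetase of the last hepatocytes before the central vein, measured 11.95, 12.04 and 11.98 in the Lyve-1-KO arrays, against 12.10, 11.93 and 11.80 in the Ctrl arrays. Rhbg, an ammonium transporter of the same cells, measured 4.02, 4.09 and 4.01 in the Lyve-1-KO arrays, against 3.95, 4.01 and 4.02 in the Ctrl arrays. Neither had the peak in replicate 2 of both groups, the groups overlapped, and the log2 fold changes were 0.05 (standard error 0.09) and 0.04 (standard error 0.06). Oat, an ornithine aminotransferase, measured 9.16, 9.43 and 9.02 in the Lyve-1-KO arrays, against 9.21, 9.60 and 9.33 in the Ctrl arrays. Slc1a2, a glutamate transporter, measured 4.92, 5.44 and 5.06 in the Lyve-1-KO arrays, against 5.37, 5.50 and 5.40 in the Ctrl arrays. Ctrl replicate 2 was the highest array for both and the groups overlapped, with log2 fold changes of -0.18 (standard error 0.14) and -0.28 (standard error 0.13). For Slc1a2 the unadjusted p by limma was 0.0751 without and 0.033 with the replicate block.

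The periportal mean minus the pericentral mean was -1.34, -1.07 and -1.10 in the Lyve-1-KO arrays, against -1.31, -0.89 and -1.44 in the Ctrl arrays. This value averaged -1.17 ± 0.15 in Lyve-1-KO and -1.22 ± 0.29 in Ctrl (SD, n = 3 each), a difference of 0.04 that was smaller than the spread of either group. The median slope on the hepatocyte level, described below, was 1.45 for the periportal and 0.48 for the pericentral members. The value was also highest in replicate 2 of both groups, so it need not measure the zones alone. Without Lyve-1-KO replicate 2 the periportal difference between the groups was -0.44 and the pericentral one -0.43. Without Ctrl replicate 2 they were 0.21 and 0.00. Of 11 more periportal and 10 more pericentral genes measured, none passed, and their median log2 fold changes were -0.07 and 0.01. Of these, 7 periportal and 7 pericentral genes had mean levels below the median of all genes, and the median slopes on the hepatocyte level described below were 0.25 and 0.04, so the lists carried little hepatocyte signal here.

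Genes of bile acid metabolism had a mean level of 5.16, 5.57 and 5.07 in the Lyve-1-KO arrays, against 5.32, 5.61 and 5.37 in the Ctrl arrays. None of the 7 passed, and this list held the 2 of the 40 members whose groups did not overlap, both lower. Of all genes, 8.73% had all Lyve-1-KO arrays below all Ctrl arrays, a share that 2 of 40 members did not exceed. Cyp7b1, the oxysterol 7-alpha-hydroxylase of the alternative route, measured 5.84, 6.22 and 5.79 in the Lyve-1-KO arrays, against 6.54, 6.68 and 6.34 in the Ctrl arrays. All 3 Lyve-1-KO arrays lay below all 3 Ctrl arrays, with a log2 fold change of -0.57 (standard error 0.14), an unadjusted p of 0.00505 and an adjusted p of 0.265 by limma. Cyp39a1, which hydroxylates 24-hydroxycholesterol, measured 5.80, 5.88 and 5.87 in the Lyve-1-KO arrays, against 6.49, 5.97 and 6.21 in the Ctrl arrays. The Lyve-1-KO arrays again lay below the Ctrl arrays, the nearest being Lyve-1-KO replicate 2 and Ctrl replicate 2, with a log2 fold change of -0.38 (standard error 0.13) and an adjusted p of 0.373 by limma. For each of these genes p was 0.1 by the exact two-sided permutation test, the smallest value that 3 arrays against 3 allow. With the hepatocyte level as covariate the log2 fold changes were -0.52 for Cyp7b1 and -0.41 for Cyp39a1. Cyp7a1, the rate-limiting enzyme of the classic route, measured 3.58, 4.40 and 3.49 in the Lyve-1-KO arrays, against 3.56, 4.73 and 3.75 in the Ctrl arrays. Slc10a1, the transporter that takes bile acids up from blood, measured 5.25, 5.90 and 4.90 in the Lyve-1-KO arrays, against 4.72, 5.40 and 5.31 in the Ctrl arrays. Baat, which conjugates bile acids to amino acids, measured 3.81, 3.95 and 3.73 in the Lyve-1-KO arrays, against 3.74, 4.26 and 3.96 in the Ctrl arrays. Replicate 2 was the highest array of each group for all 3, the groups overlapped, and the log2 fold changes were -0.19 (standard error 0.36), 0.21 (standard error 0.28) and -0.15 (standard error 0.14). Cyp8b1, which sets the share of cholic acid, and Cyp27a1, the mitochondrial sterol hydroxylase, had log2 fold changes of -0.08 (standard error 0.14) and 0.01 (standard error 0.13).

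The 4 remaining hepatocyte genes had a mean level of 6.89, 8.05 and 6.65 in the Lyve-1-KO arrays, against 6.73, 7.88 and 7.17 in the Ctrl arrays, with replicate 2 highest in both groups for each of them. Cyp3a11, a main drug-metabolizing P450, measured 7.06, 8.56 and 6.56 in the Lyve-1-KO arrays, against 6.29, 8.26 and 7.41 in the Ctrl arrays. Tat, which breaks down tyrosine, measured 7.11, 8.86 and 7.02 in the Lyve-1-KO arrays, against 7.75, 8.65 and 7.75 in the Ctrl arrays. Tdo2, which breaks down tryptophan, measured 4.99, 5.98 and 4.87 in the Lyve-1-KO arrays, against 4.99, 6.39 and 5.33 in the Ctrl arrays. These 3 enzymes spanned 1.51 to 2.27 between arrays, the groups overlapped, and the log2 fold changes were 0.07 (standard error 0.64), -0.39 (standard error 0.51) and -0.29 (standard error 0.42). Car2, carbonic anhydrase 2, which hydrates carbon dioxide, measured 8.38, 8.82 and 8.13 in the Lyve-1-KO arrays, against 7.89, 8.22 and 8.20 in the Ctrl arrays. Lyve-1-KO replicates 1 and 2 lay above all Ctrl arrays and Lyve-1-KO replicate 3 below Ctrl replicates 2 and 3, with a log2 fold change of 0.34 (standard error 0.18) and an adjusted p of 0.526 by limma. With the hepatocyte level as covariate it was 0.42 (unadjusted p = 0.0044, adjusted p = 0.293). Since red cells also carry this enzyme, the 5 measured erythroid markers were read beside it: they averaged 3.65 to 3.83 in the Lyve-1-KO arrays and 3.78 to 4.64 in the Ctrl arrays. Hbb-b1, a haemoglobin beta chain, measured 3.57, 3.29 and 3.18 in the Lyve-1-KO arrays, against 3.37, 5.80 and 4.87 in the Ctrl arrays, and Alas2, which starts haem synthesis in red cell precursors, measured 4.22, 4.50 and 3.90 in the Lyve-1-KO arrays, against 4.17, 5.71 and 5.15 in the Ctrl arrays. Both were thus highest in Ctrl replicates 2 and 3, while Car2 was highest in Lyve-1-KO replicates 1 and 2. The other erythroid markers, Hbb-bs, Slc4a1 and Epb42, did not show this order, and all 5 had mean levels below the median of all genes. The part of red cells in the level of Car2 was not tested.

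How closely each transcript followed the hepatocyte level was described by its slope, the change of its log2 level per log2 unit of the wider list in a fit that also held the group. Of the 40 members, 29 had a slope of 0.5 or more, against 3.19% of all genes, and 22 had a slope of 1 or more. The steepest were Cyp2e1 (3.03, standard error 0.20), Cyp3a11 (2.69, standard error 0.18), Cps1 (2.36, standard error 0.17) and Cyp1a2 (2.33, standard error 0.16), which come from both zones. The 11 members under 0.5 were Hp, F13b, Hal, Slc1a2, Rhbg, Glul, Baat, Cyp27a1, Cyp7b1, Cyp8b1 and Cyp39a1. Of these, Glul (-0.03, standard error 0.15), Rhbg (0.09, standard error 0.10), Cyp39a1 (-0.29, standard error 0.19), Hp (0.33, standard error 0.73), Hal (0.28, standard error 0.23) and Cyp8b1 (0.31, standard error 0.21) lay within 2 standard errors of 0, as did Ass1 (1.11, standard error 0.73) among the others. For these genes the label hepatocyte transcript was not borne out by movement with the wider list. Such movement was not particular to hepatocyte genes: the 11 macrophage markers had a median slope of 1.33, and that of the 12 stellate cell markers was 0.64, against 1.11 over the members and -0.01 over all genes. By role, the genes under 0.5 were 1 of 11 plasma proteins, 1 of 6 clotting factors, 1 of 6 periportal genes, 3 of 6 pericentral genes and 5 of 7 bile acid genes. A slope here rests on 6 arrays, and F13b, Rhbg, Cyp8b1 and Baat also had mean levels below the median of all genes, as did F9 and Cyp7a1.

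**Figure D5:**
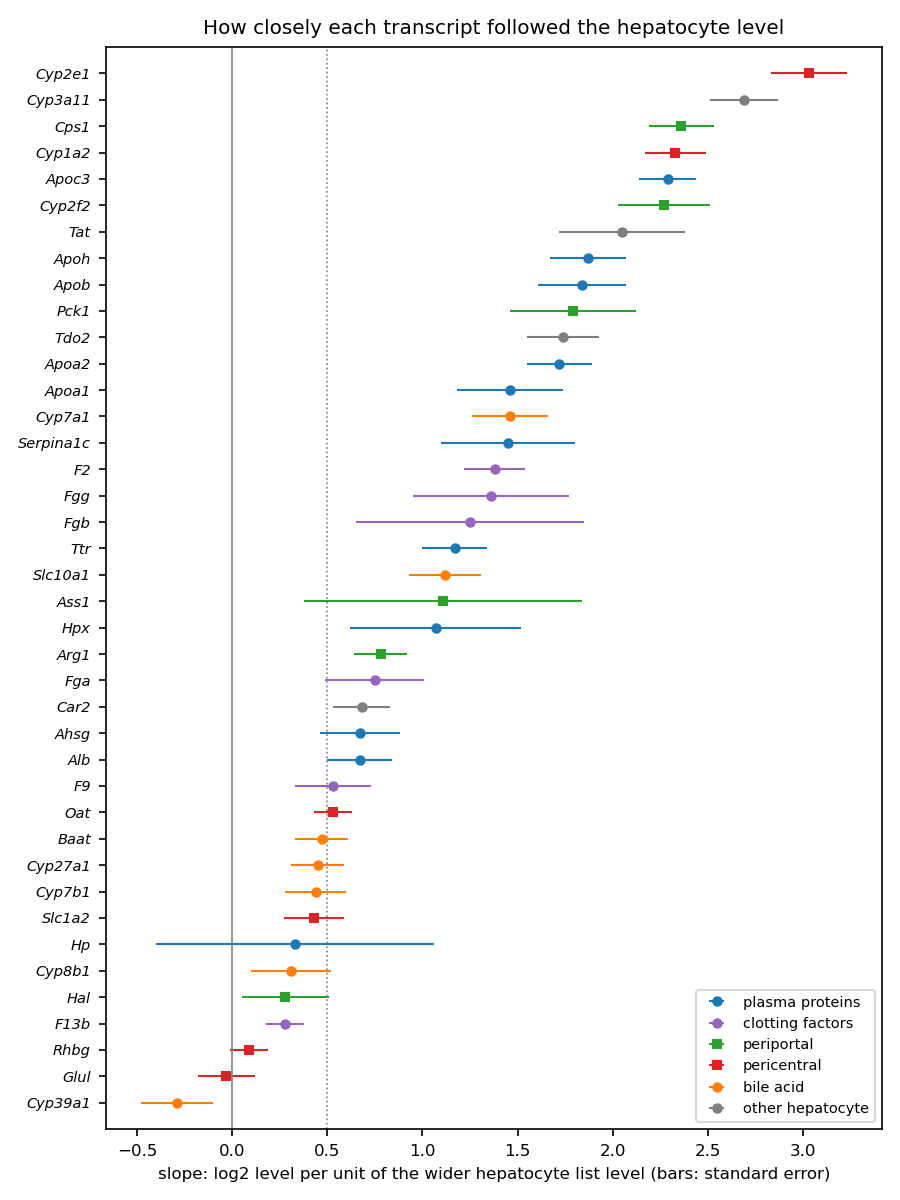
Slope of each of 40 hepatocyte transcripts on the mean level of the wider hepatocyte list (horizontal axis, log2 level per log2 unit; bars are standard errors), ordered by slope and coloured by role, with squares for the zonated genes. Cyp2e1 is steepest at 3.03, 29 genes lie at or right of the dotted line at 0.5, and Glul and Cyp39a1 lie left of 0.

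Other hepatocyte genes, none of them members, were read in the same fit. Of the 64 genes of the wider list none passed, and at an unadjusted p under 0.05 there were 3 higher ones (5.87% of all genes were) and 2 lower ones (5.33% of all genes were), while 45 (70.3%) were highest in replicate 2 of both groups. The 15 acute phase genes, which hepatocytes induce in inflammation, had a mean level of 5.54, 5.92 and 6.05 in the Lyve-1-KO arrays, against 5.71, 5.93 and 5.71 in the Ctrl arrays, and a median log2 fold change of 0.00. Hamp, hepcidin, the hepatocyte hormone that limits release of iron into plasma, stood apart from them with 7.34, 8.01 and 6.98 in the Lyve-1-KO arrays, against 4.72, 4.93 and 5.48 in the Ctrl arrays. All Lyve-1-KO arrays lay above all Ctrl arrays, as for 8.71% of all genes. Hamp, at 2.40 log2 units higher (standard error 0.29), missed the threshold (adjusted p = 0.111 by limma). Among the alternatives it passed only when the variance was modelled with trend and robust options (adjusted p = 0.0443). Adjusted p was 0.187 by limma with the replicate block, 0.149 with the hepatocyte level as covariate and 0.319 by the test of the methods. The study reports hepcidin in plasma of female mice as unaltered between its groups. With the hepatocyte level as covariate the difference in Hamp was 2.50. Its near copy Hamp2 had a log2 fold change of -0.02. Of 14 measured hepatocyte transcription factors none passed, and 11 fold changes lay below 0, with Nr1i2, the pregnane X receptor, at -0.40 and Hnf4a at -0.34 (adjusted p by limma 0.232 and 0.389). Their median slope on the hepatocyte level was 0.06, so as a list they followed this level little. Single ones followed it more, with slopes of 0.75 for Nr1h4, 0.41 for Hnf4a and 0.39 for Cebpa. Of the 14, 5 had mean levels below the median of all genes, Nr1i2 among them. Of 8 measured genes with male-biased expression in mouse liver none passed, with Cyp4a12b at 0.39, Elovl3 at -0.93 and Nudt7 at -0.37 (adjusted p by limma 0.182, 0.455 and 0.542). Of these male-biased genes, 7 had mean levels below the median of all genes, Cyp4a12b among them. All 8 measured female-biased genes lay below that median, none passed, and their median log2 fold change was -0.01.

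Markers of other cells in the preparation moved between arrays as well. The 11 measured macrophage markers had mean levels of 8.77, 9.53 and 9.83 in the Lyve-1-KO arrays, against 7.61, 9.74 and 9.04 in the Ctrl arrays, and all 11 were lowest among the Ctrl arrays in replicate 1, as most hepatocyte transcripts were. The 12 stellate cell markers averaged 7.56, 8.08 and 7.70 in the Lyve-1-KO arrays, against 7.56, 7.98 and 7.67 in the Ctrl arrays, so they too were highest in replicate 2 of both groups. None of the macrophage or stellate cell markers had a mean level below the median of all genes, and their part in the values of the hepatocyte transcripts was not tested.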

How the data were processed

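RNA of LSECs was measured on 6 Affymetrix MoGene-2_0-st arrays, 3 Lyve-1-KO and 3 Ctrl. Per the study's methods, the authors annotated probes with a custom chip definition file (version 18) based on Entrez genes and applied quantile normalization, and they deposited log2 expression values for each gene and array. The submitters' processing notes name RMA. Quantile normalization fixes the distribution of each array, so only relative changes are seen. Arrays have no read depth, and their number limits the precision. Symbols came from the platform annotation (23281 genes with a symbol, 1198 unnamed here). The groups were compared with lmFit and eBayes of limma 3.58.1 under R 4.3.3 (no filter, Benjamini-Hochberg adjustment over 24479 genes), and single members also by an exact two-sided permutation test. A run of the fit on simulated data used independent noise per gene, so it could not test shifts that genes of an array share. No list was given a test. The members and lists, their roles, the tests and the wider hepatocyte list were chosen with earlier results of these data known. Per-array values are given for up to 4 members of each role list with the smallest unadjusted p and the 2 with the widest spread, for Glul, Arg1, Rhbg, Cyp2e1, F13b and Car2, and for Alb, which was added after its values were seen (Ahsg is given by its mean). Alternatives were the replicate block, the hepatocyte level as covariate, repeated quantile normalization, median centring, a filter at the 40th percentile of the mean level, trend and robust options, array weights, the test per gene of the methods and leaving out each array. The labels number the pools in each group without saying that the numbers pair them. After removal of the group means, deviations of same-numbered arrays correlated across all genes at 0.206, 0.134 and 0.124, against -0.218 to 0.0432 for other pairs, and without the hepatocyte lists at 0.194, 0.0851 and 0.127. The numbers were therefore treated as pairs in the alternative with the block, a pairing read from these same data. Over the 40 members, same-numbered arrays correlated at 0.451, 0.708 and 0.0738. The last value lay below those of Lyve-1-KO replicate 3 with Ctrl replicate 1 (0.336) and of Lyve-1-KO replicate 1 with Ctrl replicate 3 (0.268). The labels call the arrays of a group biological replicates. They do not say how separately the pools were prepared, so p-values measure the spread between these arrays.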

Additional observations from a re-analysis of the deposited data

How the results depend on the processing

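No member passed the threshold under any alternative run, with the lowest adjusted p between 0.208 and 0.592. Of all genes, 1 passed in the comparison as reported, 0 with the replicate block, 0 with the hepatocyte level as covariate, 49 with trend and robust options, 0 with the test of the methods, and 0 to 2 when 1 array was left out (2 without Ctrl replicate 1, and 0 without each of the other arrays). The block changed no other call. The difference between the groups ranged over the arrays left out from -0.29 to 0.20 for the mean of all members, -0.44 to 0.21 for the periportal mean, -0.43 to 0.03 for the pericentral mean and -0.22 to 0.15 for the median log2 fold change, each moving from its reported value by less than the SD between replicates. With the hepatocyte level as covariate these values were 0.11, 0.05, -0.04 and 0.07, so the sign of the first and of the periportal mean turned. Among single members it turned with this covariate for Apob (0.18), Apoc3 (0.26), Cps1 (0.11), Arg1 (0.03) and Cyp1a2 (0.06), and with array weights for F2 (-0.03) and Cyp3a11 (-0.14). Leaving out 1 array turned the sign of 22 of the 32 members with per-array values under the rule, and the cause was not tested. Their log2 fold changes without 1 array were Apoa1 -0.16 to 0.55, Apob -0.43 to 0.34, Apoc3 -0.55 to 0.39, Ttr -0.21 to 0.33, Ahsg -0.27 to 0.11, Fgb -0.11 to 0.81, Fgg -0.19 to 0.54, F2 -0.20 to 0.34, F9 -0.04 to 0.26, F13b -0.04 to 0.07, Cps1 -0.70 to 0.29, Ass1 -0.80 to 0.01, Arg1 -0.22 to 0.13, Pck1 -0.77 to 0.06, Cyp2f2 -0.01 to 0.94, Glul -0.02 to 0.13, Cyp2e1 -1.11 to 0.20, Cyp1a2 -0.80 to 0.20, Cyp7a1 -0.48 to 0.16, Slc10a1 -0.07 to 0.43, Cyp3a11 -0.51 to 0.54 and Tdo2 -0.64 to 0.12. The other 10 kept their sign, with Cyp7b1 at -0.70 to -0.48, Cyp39a1 at -0.50 to -0.24 (the smallest without Ctrl replicate 1), Car2 at 0.16 to 0.50, Hp at 0.08 (without Lyve-1-KO replicate 3) to 0.85, Tat at -0.99 to -0.07, Hal at -0.41 to -0.15, Slc1a2 at -0.43 to -0.17, Oat at -0.29 to -0.07, Baat at -0.28 to -0.02 and Rhbg at 0.02 to 0.06. Hamp ranged from 2.12 to 2.63 and passed only with trend and robust options. With 3 arrays per group and a within-group SD near 0.55 for the members, differences of the size seen were not resolved.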
